A study of Mus musculus with 4 samples.

Results

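The proteasome is the large barrel-shaped protease that breaks down ubiquitin-tagged proteins, and its genes were followed here in mouse aorta after rosiglitazone. Members were the probe sets whose only gene symbol begins with Psma, Psmb, Psmc, Psmd, Psmf or Psmg followed by a digit, leaving out Psmb8, Psmb9 and Psmb10. This rule matched 50 of 12488 probe sets, for 39 of the 8251 genes named by a probe set with 1 symbol. One of them, for Psmc3ip, belongs to a meiotic recombination factor and was set aside, so 49 probe sets of 38 genes were described. They comprised 7 alpha and 7 beta genes of the core (7 and 12 probe sets), 6 ATPase and 11 non-ATPase genes of the regulatory particle (9 and 13 probe sets), and 7 genes of assembly factors (8 probe sets). No probe set matched Psmf1.

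RNA was hybridised to Affymetrix MG-U74Av2 oligonucleotide arrays, 1 value per probe set and array. The rosiglitazone group had 2 arrays. Their RNA was pooled from aortas of adult male mice, strain C57BL/6J, that received 25 mg/kg per day of rosiglitazone over 21 days, a thiazolidinedione ligand of PPARγ. The vehicle group had 2 arrays as well, of RNA pooled in the same way from adult males of that strain given vehicle for the same 21 days. The labels give neither the number of mice per pool nor whether both arrays of a group drew on 1 pool, so each p-value reflects array-to-array spread that may be technical. No mutation or transgene is named for either group. The question of the comparison was which aortic transcripts differed after chronic treatment.

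The 26S proteasome consists of a 20S core, in which rings of alpha subunits close the barrel and rings of beta subunits carry the proteolytic sites, capped by a 19S regulatory particle. The base of that particle is a ring of ATPases that unfolds substrates and threads them into the core, and its non-ATPase subunits bind and remove ubiquitin chains. Dedicated chaperones assemble core and base. In mammalian cells the transcription factor NRF1 (Nfe2l1) can raise the subunit genes together when proteasome activity is inhibited, and inflammatory cytokines can replace the catalytic beta subunits by those of the immunoproteasome.

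No proteasome probe set (0 of 44 tested) differed between rosiglitazone and vehicle past an adjusted p of 0.05 in limma, and the smallest adjusted p was 0.436. Over all probe sets tested, 26 of 7134 passed, or 0.364%, and 0 of 44 lies near that rate. At an unadjusted p under 0.05 there was 1 proteasome probe set of 44, that of Psmg1, against 776 of 7134 or 10.9% of all. The intensities of the 2 rosiglitazone arrays lay wholly above or wholly below those of the 2 vehicle arrays in 13 of the 44, or 29.5%, against 40.8% of all probe sets tested. Among the 13 is that of Psmd10, which was bright enough to be tested only through its rosiglitazone values. The difference between the group means was larger than the gap between the arrays of either group in 7 of the 44, or 15.9%, against 28% of all. These 7 were Psmb1, Psmb4, Psmc3, Psmc5, Psmd4, Psmd8 and Psmg1, each on 1 of its probe sets. By each of these measures the share among proteasome genes was not above that of the array. No test was made of the difference between the shares.

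Fold changes were small for most members. With each gene read on its brightest probe set, 27 of 30 core and regulatory genes had a log2 fold change under 0.5 in size, or 90%, against 64.5% of the 5466 genes tested. The median size was 0.23 for these 30 genes and 0.36 for all genes. Most proteasome probe sets were bright, and across the 7134 probe sets tested, which are not independent replicates, the size of the fold change was smaller at higher intensity (Spearman rho -0.27, and -0.18 over the 44 members). Among 1637 other genes within 1 log2 unit of the median proteasome intensity, the median size was 0.26 and 75.9% lay under 0.5. The spread between arrays of a group was close to that of the array, with a median SD of 0.35 on the log2 scale for the 44 proteasome probe sets and 0.34 for all 7134. The 95% intervals (limma) give the precision. Their median half-width was 0.67 on the log2 scale, a 1.59-fold change. In 25 of the 44 probe sets the whole interval lay between -1 and 1, so that a 2-fold difference in either direction was outside it. In the others it reached a 2-fold difference in at least 1 direction. In bulk aorta, fewer cells of a type and less RNA per cell cannot be told apart.

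**Figure D1:**
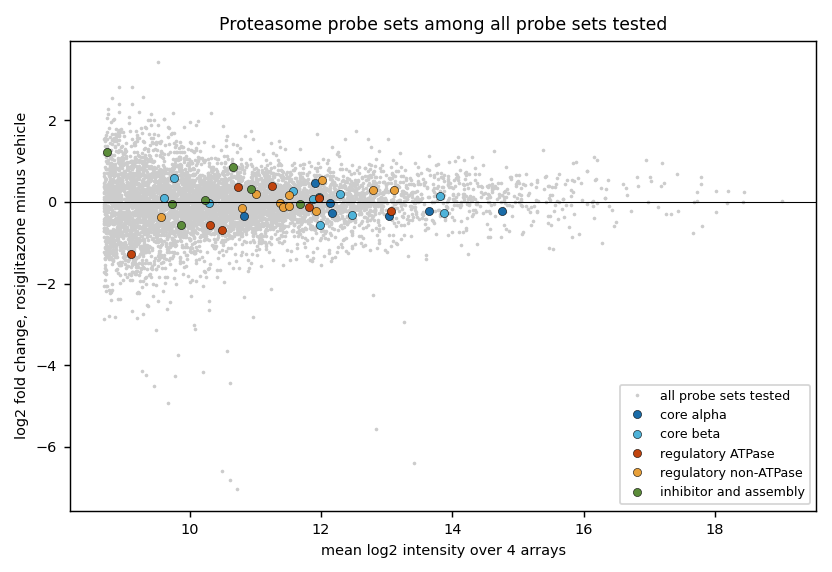
Log2 fold change (rosiglitazone minus vehicle, vertical axis) against mean log2 intensity over the 4 arrays (horizontal axis) for the 7134 probe sets tested, in grey, with the 44 proteasome probe sets coloured by class. The proteasome points are at most 0.58 in size except those of Psmc1, Psmc4, Psmd10 and Psmg1.

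The medians of core and regulatory genes were close to each other. The 14 core genes had a median log2 fold change of -0.13, with 6 above 0 and 8 below, and a range from -0.35 to 0.47. The 16 regulatory genes tested had a median of -0.12, with 6 above 0 and 10 below, and a range from -1.27 to 0.53. The lower end was Psmc4, which was bright enough to be tested only through its vehicle values. The median over all 5466 genes tested was -0.02. Both medians turned positive without rosiglitazone replicate 2, at 0.11 for the core and 0.03 for the regulatory particle. Without rosiglitazone replicate 1 they were -0.16 and -0.09.

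For the core as a whole and for the regulatory particle as a whole, the gap between the arrays of a group was larger than the difference between the group means in both groups, but not for every class. Taking each gene's deviation from its own mean over the 4 arrays, the median deviation of the core genes was 0.11 and -0.18 on rosiglitazone replicates 1 and 2, against 0.10 and -0.06 on vehicle replicates 3 and 4. Each group thus had 1 array above and 1 array below the mean. For the regulatory genes it was 0.08 and -0.03 with rosiglitazone, against 0.03 and 0.02 with vehicle. For all genes tested the same median ran from 0.01 to 0.05 over the 4 arrays. For the alpha ring it was 0.14 and -0.27 with rosiglitazone, against 0.30 and -0.08 with vehicle, and 6 of the 7 alpha genes were dimmer on rosiglitazone replicate 2 than on replicate 1. For the beta genes it was 0.08 and 0.04 with rosiglitazone, against -0.03 and -0.05 with vehicle. For the non-ATPase genes it was 0.08 and 0.02 with rosiglitazone, against -0.01 and -0.04 with vehicle. In these 2 classes both rosiglitazone medians lay above both vehicle medians, by a difference of means larger than the gap between the arrays of either group. The fold changes of the 10 non-ATPase genes did not follow this direction. Their median log2 fold change was -0.06, with 4 genes above 0 and 6 below.

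**Figure D2:**
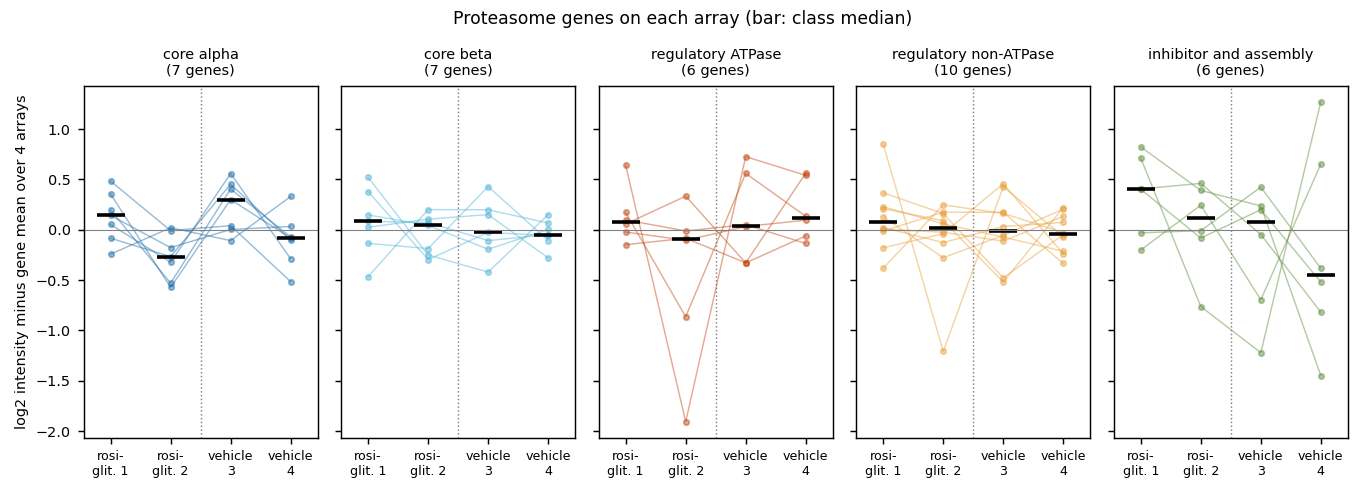
Log2 intensity of each proteasome gene minus its mean over the 4 arrays (vertical axis), on the rosiglitazone arrays to the left of the dotted line and the vehicle arrays to the right, in 5 panels by class; each line joins the values of 1 gene on its brightest probe set and the black bar is the class median. The alpha medians are 0.14 and -0.27 with rosiglitazone, against 0.30 and -0.08 with vehicle, so that the arrays of that class lie further apart within a group than the group means, while in the beta and non-ATPase panels both rosiglitazone medians lie above both vehicle medians.

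The alpha subunits, Psma1 to Psma7, form the outer rings that gate entry to the core. All 7 were tested, each on 1 probe set, and all 7 had overlapping groups. Psma4 had intensities of 5397 and 3839 with rosiglitazone, against 3973 and 2703 with vehicle. It was the only alpha gene above 0, at a log2 fold change of 0.47 (95% interval -0.19 to 1.14, adjusted p = 0.609). Psma2 had 7947 and 7001 with rosiglitazone, against 11528 and 7850 with vehicle, a log2 fold change of -0.35. Only vehicle replicate 3 stood above the rest. Psma1 had 2076 and 1254 with rosiglitazone, against 2397 and 1723 with vehicle, and a log2 fold change of -0.33. Psma5, Psma3, Psma6 and Psma7 had log2 fold changes of -0.27, -0.22, -0.22 and -0.04. The alpha median was -0.22, with 6 of 7 genes below 0. None of the 7 passed the test, and the smallest unadjusted p was that of Psma4 (0.141, limma).

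Of the beta subunits, Psmb5, Psmb6 and Psmb7 carry the chymotrypsin-like, caspase-like and trypsin-like sites. Psmb5 had 4354 and 2551 with rosiglitazone, against 2268 and 3370 with vehicle, on its brighter probe set. The groups overlapped, and the log2 fold change was 0.27 (95% interval -0.50 to 1.04). Its other probe set had 1087 and 1424 with rosiglitazone, against 951 and 1698 with vehicle, and a log2 fold change of -0.03. Psmb6 had 5521 and 5135 with rosiglitazone, against 4360 and 4995 with vehicle. Both rosiglitazone arrays were above both vehicle arrays, by a log2 fold change of 0.19 (95% interval -0.33 to 0.71, adjusted p = 0.819). Psmb7 had 4906 and 3072 with rosiglitazone, against 3703 and 3627 with vehicle, and a log2 fold change of 0.08. For all 3 catalytic genes the interval of the brightest probe set held 0.

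The other beta subunits, Psmb1 to Psmb4, have structural roles in the rings. Psmb1 was lower on both rosiglitazone arrays on 2 of its 3 probe sets. On one of them it had 3916 and 2827 with rosiglitazone, against 4680 and 5218 with vehicle. This log2 fold change of -0.57 (95% interval -1.16 to 0.02, adjusted p = 0.474) had the smallest unadjusted p of the core, 0.057. The brighter probe set of Psmb1 had 5179 and 4997 with rosiglitazone, against 7656 and 5280 with vehicle, a log2 fold change of -0.32. A dim one had overlapping groups and 0.11. Psmb4 had 15281 and 15156 with rosiglitazone, against 13379 and 13936 with vehicle, on its brightest probe set. The groups did not overlap and differed by 0.16 on the log2 scale (95% interval -0.28 to 0.59). A second Psmb4 probe set had 722 and 1575 with rosiglitazone, against 629 and 809 with vehicle, at 0.58 and with overlapping groups. Psmb2 and Psmb3 had log2 fold changes of 0.13 and -0.27. The median over the 7 beta genes was 0.13, with 5 above 0.

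**Figure D3:**
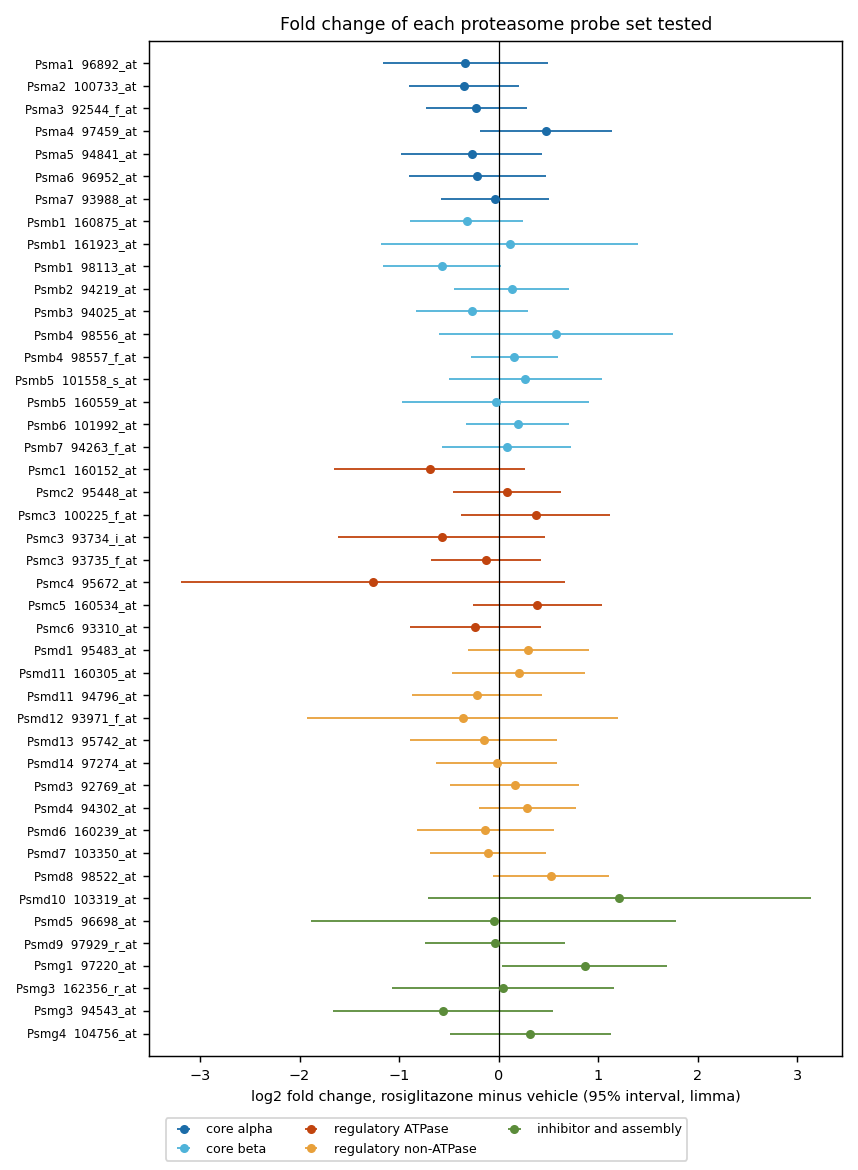
Log2 fold change (rosiglitazone minus vehicle) with its 95% limma interval for each of the 44 proteasome probe sets tested, labelled by gene and probe set and coloured by class. The interval holds 0 in 43 of the 44, the exception being Psmg1.

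In the regulatory particle, Psmc1 to Psmc6 encode the ATPases of the base, and all 6 were tested. The largest value was that of Psmc4, a dim probe set with 864 and 127 on the rosiglitazone arrays, against 917 and 806 on the vehicle arrays. Rosiglitazone replicate 2 lay under the floor of 148 and the other 3 arrays ran from 806 to 917. The log2 fold change of -1.27 (95% interval -3.19 to 0.66, adjusted p = 0.638) rested on that array and was 0.01 without it. Psmc4 was bright enough to be tested only through its vehicle values. Psmc1 had 1632 and 796 with rosiglitazone, against 2135 and 1590 with vehicle. The groups overlapped, at a log2 fold change of -0.69 that was -0.17 without rosiglitazone replicate 2. Psmc5 had 2532 and 3067 with rosiglitazone, against 1938 and 2333 with vehicle, higher on both arrays by a log2 fold change of 0.39 (95% interval -0.26 to 1.04). Psmc3 had 3566 and 3369 with rosiglitazone, against 3703 and 3871 with vehicle, on its brightest probe set, a log2 fold change of -0.13 with groups that did not overlap. A second Psmc3 probe set had 1889 and 2018 with rosiglitazone, against 1274 and 1783 with vehicle, also apart but in the other direction (0.37). The third had 707 and 1536 with rosiglitazone, against 1287 and 1866 with vehicle, a log2 fold change of -0.57 with overlap. Psmc2 and Psmc6 had overlapping groups and log2 fold changes of 0.09 and -0.23.

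The non-ATPase subunits hold the scaffold, the ubiquitin receptors and the deubiquitinase of the particle. Psmd8, a lid subunit, had 5322 and 4611 with rosiglitazone, against 2964 and 3987 with vehicle. Both rosiglitazone arrays were above both vehicle arrays, by a log2 fold change of 0.53 (95% interval -0.06 to 1.11, adjusted p = 0.51). This was the smallest unadjusted p of the regulatory particle (0.0719, limma), and the value stayed between 0.31 and 0.74 with any 1 array left out. Psmd4, a ubiquitin receptor, had 8299 and 7386 with rosiglitazone, against 6737 and 6109 with vehicle. It was likewise higher on both arrays, by a log2 fold change of 0.29 (95% interval -0.20 to 0.77). Psmd14, the deubiquitinase that cuts chains from substrates, had 2675 and 2620 with rosiglitazone, against 2465 and 2924 with vehicle, a log2 fold change of -0.02 (95% interval -0.63 to 0.59).

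Psmd1, a large scaffold subunit of the base, had 10207 and 9393 with rosiglitazone, against 6157 and 10286 with vehicle, and a log2 fold change of 0.30. Vehicle replicate 3 alone was low. Psmd12, another lid subunit, had 1370 and 329 with rosiglitazone, against 1022 and 725 with vehicle. Its rosiglitazone arrays enclosed both vehicle arrays, and its log2 fold change of -0.36 was 0.67 without rosiglitazone replicate 2. Psmd11, a lid subunit, had 3442 and 3793 with rosiglitazone, against 5351 and 3300 with vehicle, on its brightest probe set, a log2 fold change of -0.22 with overlap. A second probe set of Psmd11 had 2312 and 2115 with rosiglitazone, against 1783 and 2077 with vehicle, a log2 fold change of 0.20 without overlap. The lid subunits Psmd3, Psmd6, Psmd7 and Psmd13 had log2 fold changes of 0.16, -0.13, -0.11 and -0.15, and Psmd7 was the only one of these 4 without overlap. Psmd2, the other large scaffold subunit, was not tested. Its single probe set had 158 and 693 with rosiglitazone, against 181 and 782 with vehicle, with replicates 2 and 4 far above replicates 1 and 3.

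Among the assembly factors, Psmg1 and Psmg2 form a chaperone pair of the alpha ring, Psmg3 and Psmg4 another, and Psmd5, Psmd9 and Psmd10 guide the ATPase base. Psmg1 had 2136 and 2219 with rosiglitazone, against 1561 and 915 with vehicle. Both rosiglitazone arrays were above both vehicle arrays, by a log2 fold change of 0.87 (95% interval 0.04 to 1.69). Its adjusted p was 0.436 (limma, unadjusted 0.0423), the smallest of all members, and its log2 fold change was 0.48 without vehicle replicate 4 and 1.25 without vehicle replicate 3. Psmd10, also known as gankyrin, had 758 and 562 with rosiglitazone, against 505 and 157 with vehicle. These groups did not overlap either, and the log2 fold change was 1.21 (95% interval -0.71 to 3.14, adjusted p = 0.659), but vehicle replicate 4 alone set its size. Without that array the value was 0.37. The mean of Psmd10 over the 4 arrays lay just above the filter only through its rosiglitazone values.

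Psmg4 had a log2 fold change of 0.32 and Psmd9 one of -0.04, both with overlap. Psmg3 had 0.04 on its brighter probe set and -0.55 on the other, which had 534 and 1108 with rosiglitazone, against 1162 and 1098 with vehicle. Psmd5 had 1389 and 500 with rosiglitazone, against 364 and 2047 with vehicle. Its vehicle arrays lay further apart than those of any other member tested, so that the log2 fold change of -0.05 had an interval from -1.88 to 1.78. Psmg2 was not tested, with 560 and 81 in the rosiglitazone group, against 595 and 78 in the vehicle group, so that 1 array of each group was under the floor. The median over the 6 assembly genes tested was 0.18, with 4 above 0, and the median deviation of this class was 0.40 and 0.12 with rosiglitazone, against 0.08 and -0.45 with vehicle. Both rosiglitazone arrays lay above both vehicle arrays, and the gap between the vehicle arrays was larger than the difference between the group means. These class values include Psmd10, which passed the filter only through its rosiglitazone values, and they were not computed without it.

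Several probe sets measured 7 of the genes. Those tested differed in sign for Psmb1, Psmb5, Psmc3, Psmd11 and Psmg3, and agreed in sign for Psmb4. Psmb4 had the widest gap, 1.64 on the log2 scale, through a probe set under the filter that had 33 and 60 with rosiglitazone, against 292 and 327 with vehicle. Its rosiglitazone values were both under the floor, so it gave at least a 2.09-fold lower signal there, opposite to the bright probe set of the same gene. Psmc3 followed with a gap of 0.95. Gaps of this size between probe sets of 1 gene exceed most of the fold changes above. Of the 49 probe sets 13 bear a letter in their name that marks probes shared with related sequences or chosen under relaxed rules. Among them are the brightest or only ones of Psma3, Psmb4, Psmb5, Psmb7, Psmc3, Psmd9, Psmd12 and Psmg3. What else these 13 detect was not tested. Of the 5 probe sets under the filter, those of Psmd2 and Psmg2 are the only ones of their genes and are given above, and those of Psmc5 and Psmd11 had log2 fold changes of 0.27 and 0.45. The probe set of Psmc3ip was under the floor on all 4 arrays.

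**Figure D4:**
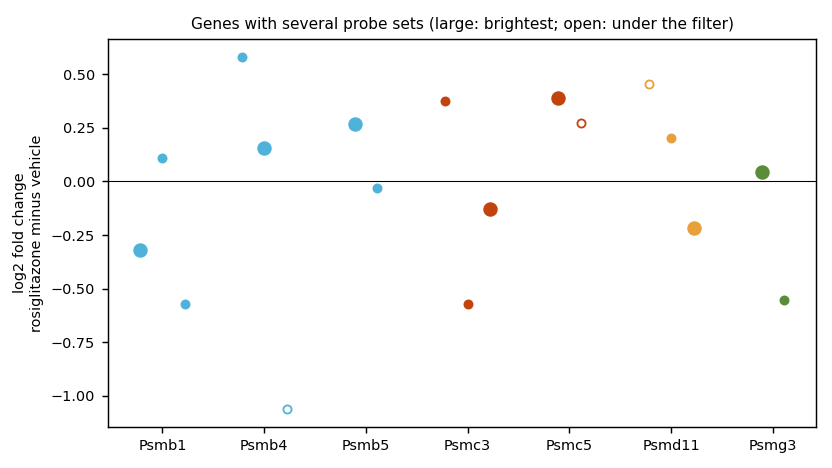
Log2 fold change (rosiglitazone minus vehicle) of every probe set of the 7 proteasome genes with more than 1, with genes along the horizontal axis; large points are the brightest probe set, open points lie under the intensity filter, and colours are the classes (blue for the core, orange for the regulatory particle, green for assembly). The points of Psmb4 span 1.64 and those of Psmc3 0.95.

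Because NRF1 acts on subunit genes through antioxidant response elements, the RefSeq promoters (GRCm38.p6, 250 bases before to 50 after the start, one or more per gene) of the 31 member genes in the table were searched on both strands for the core of that element, TGACNNNGC. It occurred in 5 of 31 member genes, or 16.1%, against 14.0% of 27025 genes. The CCAAT box, CCAAT, bound by NF-Y and searched on both strands, occurred in 11 of 31, or 35.5%, against 41.1% of all. Neither motif contains the other. The catalytic gene Psmb7 was not among the 31 and was not searched, nor were Psmb1, Psmb2, Psmc3, Psmd3, Psmd7 and Psmg2. The 5 matches to the element are shown, since they include the catalytic genes Psmb5 and Psmb6, as read on the gene's strand with up to 15 bases on each side and the match in capitals. On Psmc6 and Psmd12 the match is on the opposite strand, so the capitals show its reverse complement.
Psmb5, chr14:54618019-54618057, minus strand: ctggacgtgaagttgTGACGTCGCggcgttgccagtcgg
Psmb6, chr11:70525333-70525356, plus strand: gcggactaaagagagTGACGGAGC
Psmd9, chr5:123228144-123228182, plus strand: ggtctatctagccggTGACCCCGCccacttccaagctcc
Psmc6, chr14:45329582-45329620, plus strand: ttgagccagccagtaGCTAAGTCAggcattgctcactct
Psmd12, chr11:107479278-107479304, plus strand: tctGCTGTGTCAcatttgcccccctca
The matches begin 47, 9 and 31 bases before the start in Psmb5, Psmb6 and Psmd9, and 227 and 247 bases before it in Psmc6 and Psmd12. The 5 genes had a median log2 fold change of -0.04 and a range from -0.36 to 0.27, and the 25 tested genes without a match had a median of -0.04 as well. The 11 genes with a CCAAT box had a median of -0.22, with 3 above 0, and the 19 tested without one had 0.04, with 10 above 0. Psmd10, tested only through its rosiglitazone values, is among those 3. The 11 with the box include the alpha genes Psma1, Psma2, Psma3, Psma6 and Psma7, all below 0. The part of the alpha class in this difference was not tested. A match is a description of letters and was not tested for binding.

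Of other genes of the pathway, 0 of 31 tested passed the threshold in limma in either direction, against 0.364% of all probe sets tested, and 2 had an unadjusted p under 0.05, against 10.9% of all. Among immunoproteasome subunits and activators, 4 of 6 tested genes lay above 0, and the median was 0.32. The immunoproteasome subunits Psmb8, Psmb9 and Psmb10, which take the place of Psmb5, Psmb6 and Psmb7, had log2 fold changes of -0.02, -0.03 and 0.13, all with overlap. The activator caps had larger values. Psme4, a single-chain activator also known as PA200, had 1545 and 1360 with rosiglitazone, against 885 and 642 with vehicle, a log2 fold change of 0.94 (95% interval 0.01 to 1.87, adjusted p = 0.453). Psme1, a subunit of the interferon-induced PA28 cap, had 6378 and 6402 with rosiglitazone, against 5082 and 3949 with vehicle, a log2 fold change of 0.51 (95% interval -0.02 to 1.05). Psme3, a related nuclear activator, had 0.50 with overlapping groups.

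Ubiquitin-related enzymes and accessory proteins had 1 of 6 tested genes above 0 and a median of -0.17. Uchl5, a deubiquitinase bound to the proteasome, had 671 and 73 with rosiglitazone, against 839 and 852 with vehicle, a log2 fold change of -1.42 that, like that of Psmc4, had rosiglitazone replicate 2 under the floor. Sem1, a small lid subunit, had 0.28, and Ecpas, a proteasome adaptor, had -0.85, both with overlap. Uchl5 and Ecpas passed the filter only through their vehicle values. Shuttle factors, which bring substrates to the proteasome, had 4 of 7 above 0 and a median of 0.02. Zfand5, a ubiquitin-binding proteasome activator, had 1455 and 1599 with rosiglitazone, against 2179 and 2991 with vehicle, a log2 fold change of -0.74 (95% interval -1.45 to -0.03, adjusted p = 0.436). Vcp, the ATPase that extracts ubiquitinated proteins from complexes, had 0.48, and Faf1, one of its cofactors, had 0.51.

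Transcription factors and stress markers had 2 of 12 above 0 and a median of -0.19. Nfe2l1 itself had 3251 and 4175 with rosiglitazone, against 3300 and 3579 with vehicle, and a log2 fold change of 0.10 with overlap. Nfe2l2, encoding the related factor NRF2, had 2452 and 1554 with rosiglitazone, against 3380 and 2685 with vehicle, a log2 fold change of -0.63 (95% interval -1.36 to 0.10). Nfya, a subunit of NF-Y, had 805 and 741 with rosiglitazone, against 1232 and 1328 with vehicle, a log2 fold change of -0.73 (95% interval -1.65 to 0.20). The heat shock gene Hspa1a had -0.51. Both arrays of the rosiglitazone group were below both vehicle arrays for these 3 genes and for Nfyc, 4 of the 12 or 33.3%, against 21.8% of all probe sets tested. That direction was chosen after the values were seen. With 0 genes of the list wholly above, the share in either direction was also 33.3%, against 40.8% of all probe sets tested. None of these fold changes passed the test, and Ubqln2 and Nqo1 were under the filter.

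**Figure D5:**
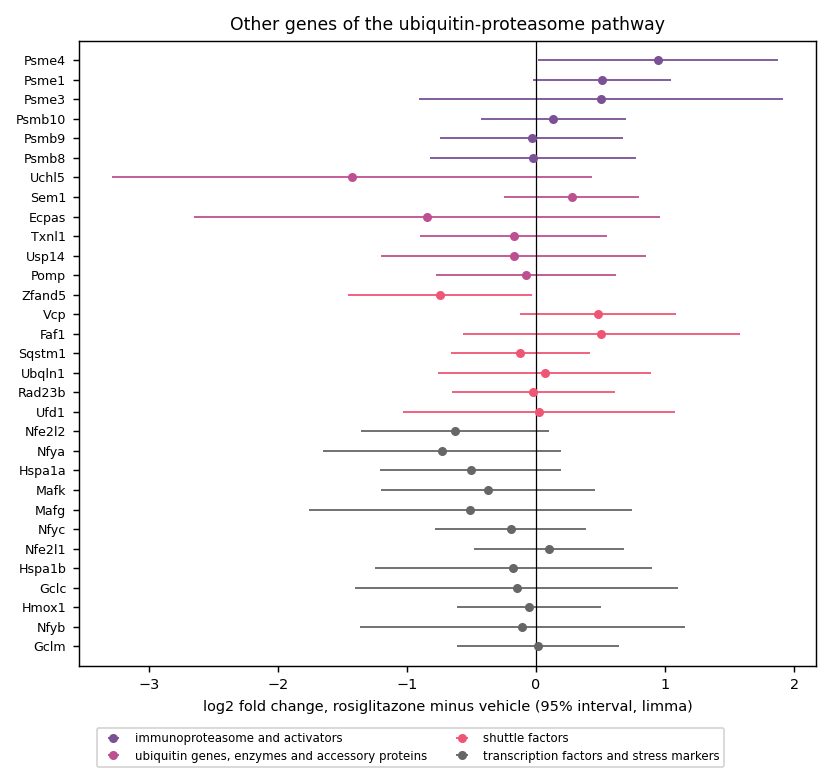
Log2 fold change (rosiglitazone minus vehicle) with its 95% limma interval for the 31 other pathway genes tested, coloured by list and ordered by p within a list. The intervals of Psme4 and Zfand5 leave out 0, on opposite sides, and the others hold it.

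On the same arrays, 6 of the 7 marker lists for cell types of the aorta and its surroundings, all but skeletal muscle, had a median log2 fold change larger in size than that of any proteasome class, a difference that was not tested. All 7 smooth muscle markers tested had log2 fold changes below 0 (median -1.26), with summed intensities of 52943 to 58321 with rosiglitazone and 111684 to 134147 with vehicle. All 8 macrophage markers were below 0 (median -1.13), with sums of 19717 to 20092 with rosiglitazone and 57777 to 63009 with vehicle. The smooth muscle marker Smtn had 285 and 346 with rosiglitazone, against 1698 and 1705 with vehicle. The macrophage marker Adgre1 had 381 and 264 with rosiglitazone, against 505 and 655 with vehicle. Both passed the filter only through their vehicle values, so their place among the tested genes depended on higher vehicle values. The counts and medians of these lists include Smtn and Adgre1 and were not computed without them. All 5 brown adipocyte markers tested, of 7 on the array, were above 0 (median 0.44). In these lists Tagln, Cd14 and Fabp3 passed the threshold, as did S100a8 and S100a9 among neutrophil markers. Neutrophil, endothelial and erythrocyte markers had medians of -0.67, -0.47 and -0.73, and skeletal muscle markers 0.01. Members of these lists did not all move alike. Of the neutrophil and of the endothelial markers 5 of 6 tested were below 0, and of the erythrocyte markers 3 of 5. The array held 7 neutrophil markers, and of its 5 skeletal muscle markers 3 were tested. The erythrocyte sums overlapped, at 507139 to 669608 with rosiglitazone and 563914 to 658396 with vehicle, and Hba-a1 and Slc4a1 had log2 fold changes of 0.02 and 0.65. The part of these shifts in the proteasome values was not tested. Signal ratios of the 3' to the 5' end of actin, a measure of RNA integrity, were 7.74 and 9.62 with rosiglitazone, against 8.88 and 11.9 with vehicle, and overlapped between the groups. Those of Gapdh were 8.79 and 10.8 with rosiglitazone, against 11.08 and 11.10 with vehicle, lower on both rosiglitazone arrays than on both vehicle arrays. The part of RNA integrity in the proteasome values was not tested.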

How the data were processed

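The authors deposited linear hybridisation intensities, whole numbers from 2 to 616423. Their summarisation and scaling are not given in the sources used. Each array has the same mean (about 1501) once 2% of values are trimmed at each end, and array medians differed by at most 0.13 on the log2 scale, so no further scaling was applied. A floor of 148 (the 20th percentile of the pooled values) was set before log2 was taken. Probe sets with a mean at or above an intensity of 414 (the 40th percentile) were kept, 7134 of 12422 without the 66 controls. Groups were compared over the whole table with limma 3.58.1 in R 4.3.3 (lmFit, eBayes with intensity trend). Tests were two-sided, at a threshold of 0.05 after Benjamini-Hochberg adjustment over the 7134. With 2 arrays per group the model has 2 residual degrees of freedom, and an exact permutation of the labels cannot go below p = 0.333. The procedure was also run on simulated data that had the same spread for every probe set, unlike the data. Its recovery of changes as small as most of those above is not given. Symbols came from the platform's probe table and were looked up by gene identifier in GRCm38.p6, where 0 changed. For gene counts the brightest tested probe set was used.

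Levels were not compared between probe sets. The proteasome rule, the pathway and marker lists were chosen with earlier results of these data known. Genes given with all 4 values were the catalytic genes and, in each class, the probe sets with the 2 largest fold changes above 0 (the alpha class has only 1) and the 2 largest below 0; Psmb4 and Psmc3 on their brightest probe sets, the third probe set of Psmc3, the second of Psmd11, Psmd2, Psmd4, Psmd14 and Psmg2 were added after their values were seen. Of each pathway list up to 3 genes with the smallest p were named, and Psmb8, Psmb9, Psmb10 and Nfe2l1 were added. Muscle ligases were listed too, with no probe set tested. Alternatives were other floors, filters, scalings and variance models, and leaving out each array. Array number limits the precision.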

Additional observations from a re-analysis of the deposited data

How the results depend on the processing

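No proteasome probe set (0) passed in limma under the 10 alternatives fitted, with 0 to 4 at an unadjusted p under 0.05. The count of other pathway genes was 0 under these too, a check added after seeing the data. The count over all probe sets was 26. It was 0 with no filter on dim probe sets or with the floor at the 40th percentile, 17 with no floor other than an intensity of 1, 7 with no intensity trend, and from 1 to 78 with 1 array left out. The core median of -0.13 ran from -0.16 to 0.11 with 1 array left out, and was -0.043 with arrays centred on their medians. The regulatory median of -0.12 ran from -0.091 to 0.030 with 1 array left out, and was -0.034 with arrays centred on their medians. That centring, which removes a difference in array medians of -0.083 on the log2 scale (rosiglitazone minus vehicle) and so moves the median of all genes from -0.022 to 0.060, turned the sign of Psma7 (0.047), Psmb5 on its dimmer probe set (0.052), Psmd14 (0.062), Psmd5 (0.032) and Psmd9 (0.043). Quantile normalization turned that of the same Psmb5 probe set (0.047) and Psmd5 (0.015). With 1 array left out the log2 fold change changed sign in 24 of 44 probe sets. It ran for Psma1 from -0.70 to 0.031, Psma5 from -0.69 to 0.15, Psma6 from -0.68 to 0.25, Psma7 from -0.20 to 0.12, Psmb1 on its dimmest probe set from -0.41 to 0.63 and Psmb2 from -0.086 to 0.35. It also ran for Psmb3 from -0.60 to 0.068, Psmb5 on its brighter probe set from -0.12 to 0.66, Psmb5 on its dimmer one from -0.45 to 0.39, Psmb7 from -0.25 to 0.42, Psmc2 from -0.0077 to 0.18 and Psmc4 from -2.54 to 0.0072. It also ran for Psmc6 from -0.68 to 0.21, Psmd1 from -0.071 to 0.67, Psmd11 on its brightest probe set from -0.57 to 0.13, Psmd12 from -1.39 to 0.67, Psmd13 from -0.35 to 0.053 and Psmd14 from -0.14 to 0.10. It also ran for Psmd3 from -0.092 to 0.42, Psmd6 from -0.45 to 0.18, Psmd5 from -1.30 to 1.20, Psmd9 from -0.44 to 0.36, Psmg3 on its brighter probe set from -0.63 to 0.72 and Psmg4 from -0.039 to 0.68. The cause of these changes was not tested. No paired analysis was possible because the groups share no replicate numbers. Signal over background cannot be judged without detection calls.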
